A study of Homo sapiens with 6 samples.

Results

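S100 proteins are small calcium sensors, each built around a pair of helix-loop-helix calcium-binding motifs called EF hands. They form dimers that change shape when calcium rises and then bind target proteins inside the cell, and several are also released and act on receptors of other cells. In melanocytic cells the family is best known for S100B, whose protein is a tissue and serum marker of melanoma. The genes examined here were S100A1, S100A2, S100A3, S100A4, S100A6, S100A10, S100A11, S100A13, S100A16 and S100B, found by symbol in the platform annotation. They make up 10 of the 17687 genes that could be compared, and each was read by 1 probe set.

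The cells were of the A375 line, which was derived from a human melanoma, and their RNA was read on 6 Affymetrix Clariom S arrays. They had been transfected 3 days earlier with an siRNA, a short double-stranded RNA that silences a matching gene. The siRNA was directed at ERK3 (siERK3, 3 arrays) or was a negative control (siCon, 3 arrays). Both were given with the same transfection reagent, in medium with 10% fetal bovine serum and 1% antibiotics. MAPK6 is the gene of ERK3, a kinase related to the MAP kinases ERK1 and ERK2. The labels used here give no siRNA sequence, and no label says whether the arrays of a group came from separate cultures. The p-values are thus set against array-to-array spread that may be technical only.

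The target was checked first. MAPK6 gave 10.54, 10.32 and 10.67 in siERK3, against 13.45, 13.55 and 13.62 in siCon, on the log2 scale in which all levels below are given. It fell by 3.03 (SE 0.14, adjusted p = 0.000133 in limma) and ranked 1 of all genes by p. The 6 array medians were 7.06 to 7.10, and from 45.6% to 47.6% of genes exceeded the background level, which is the 95th percentile of the 612 negative control probe sets of the same array. Arrays siCon 2 (-26.5) and siERK3 3 (-15.2) had negative scores on principal component 2, where the other 4 had scores of 4.35 to 21.7. Calls are also given without siCon 2 and siERK3 3, a choice made after these scores were seen. The score of 21.7 was that of siCon 1, which lay farther from 0 than siERK3 3. The choice thus does not mark the arrays left out as outliers. Of 9 melanocytic markers, 4 were above background on all arrays and 5, the pigment cell antigen MLANA among them, were below it on all arrays. The 4, named after their values were seen, were SOX10 (11.72 in siERK3, 11.78 in siCon), MITF (9.60 in siERK3, 9.77 in siCon), EDNRB (10.11 in siERK3, 10.25 in siCon) and ERBB3 (14.22 in siERK3, 13.76 in siCon). The groups did not overlap for ERBB3, and none of the 9 passed in limma (the adjusted p of ERBB3, the lowest, was 0.168).

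Knockdown of ERK3 was followed by a lower level of S100A16, and no other member passed the test. In limma, with Benjamini-Hochberg adjustment over all genes at a threshold of 0.05, 1 of the 10 members was lower and 0 were higher. That is 10% of the members, beside 0.956% of all genes called in either direction, 0.509% called lower and 0.447% called higher. Of the 9 members above background on all arrays it is 11.1%, beside 1.57% of the genes above background on all arrays. The remaining 9 did not pass, and their fitted changes ran from -0.32 to 0.39. The median change of the 10 was -0.03, beside -0.0014 for all genes, with 5 members above 0 and 5 below it. The median size of a change without its sign was 0.22 for the members and 0.16 for all genes. S100A2 was the member below background, and on all 6 arrays. In bulk RNA a lower share of cells that express a gene cannot be told apart from less of its RNA per cell.

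**Figure D1:**
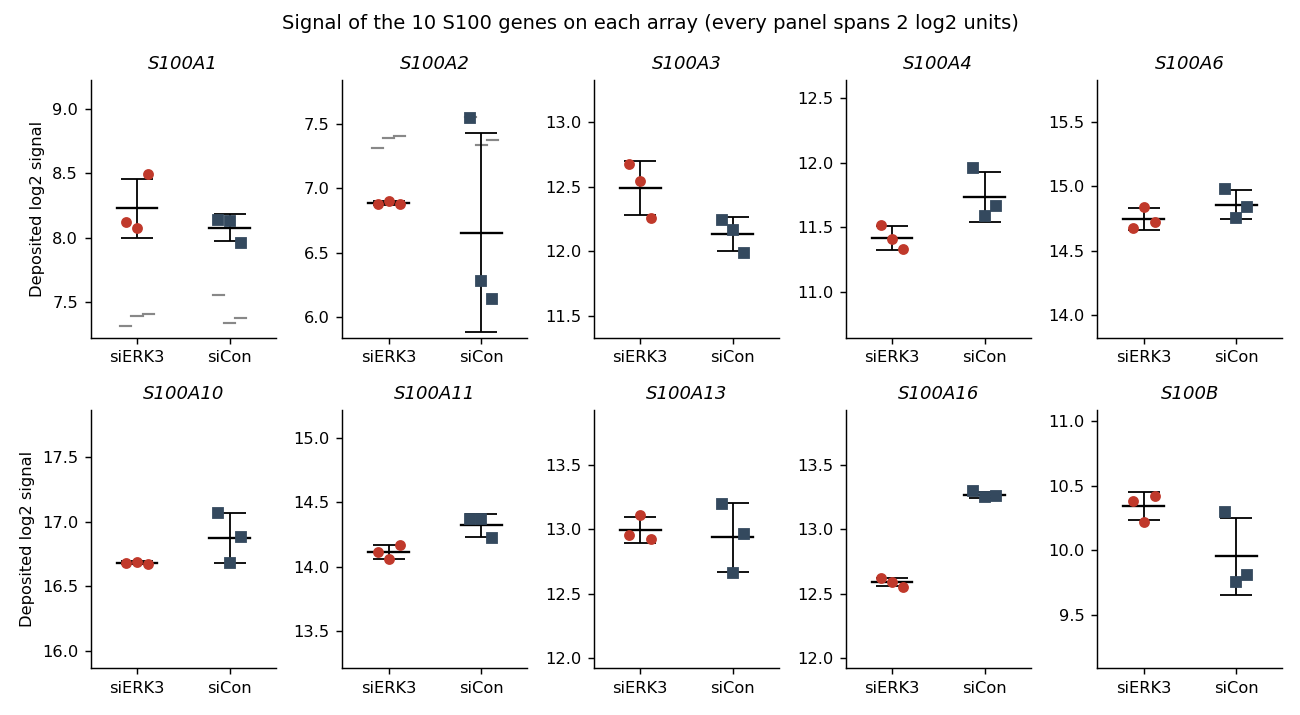
Deposited log2 signal of the 10 S100 genes on each array, siERK3 (red circles) beside siCon (dark squares); bars are mean ± SD of 3 arrays, short grey lines are each array's background level where it falls within the panel, and each panel spans 2 log2 units. S100A16 shows 3 siERK3 values of 12.56 to 12.62 clear of 3 siCon values of 13.25 to 13.29, and S100A2 lies below background throughout.

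S100A16 is a broadly expressed member with an atypical EF hand, and has been linked to fat cell differentiation. Its level was 12.62, 12.59 and 12.56 in siERK3, against 13.29, 13.25 and 13.26 in siCon. The groups were clearly apart, with siERK3 lower, and within each group the values were almost the same. The means were 12.59 ± 0.03 in siERK3 and 13.27 ± 0.02 in siCon (SD, n = 3 each), so S100A16 fell by 0.68 on the log2 scale (SE 0.12, adjusted p = 0.0446 in limma). On the deposited scale this is a signal of 62.5% of the control level, with a 95% interval of 51.6% to 75.6%, or 1.60-fold lower. Any stretch of that scale is unknown, so this percent and the folds given below hold only for the values as deposited. By size the change ranked 458 among all genes and by p it ranked 143. An exact permutation test over the arrays, two-sided, gave 0.1, which is the lowest p that 3 against 3 arrays can reach. Groups that do not overlap always give this p, so it adds nothing to the lack of overlap. The same test also gave 0.1 for MAPK6, S100A3, S100A4 and S100A11.

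The call of S100A16 was close to the threshold. Its change stayed between -0.69 and -0.66 when each array was left out in turn, but the adjusted p in limma then ran from 0.0969 (without siCon 2) to 0.160 (without siERK3 1), and S100A16 passed in 0 of these 6 fits. Without siCon 2 and siERK3 3 together, the change was -0.67 and the adjusted p was 0.227. With all probe sets tested, controls included, limma gave an adjusted p of 0.0691.

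**Figure D2:**
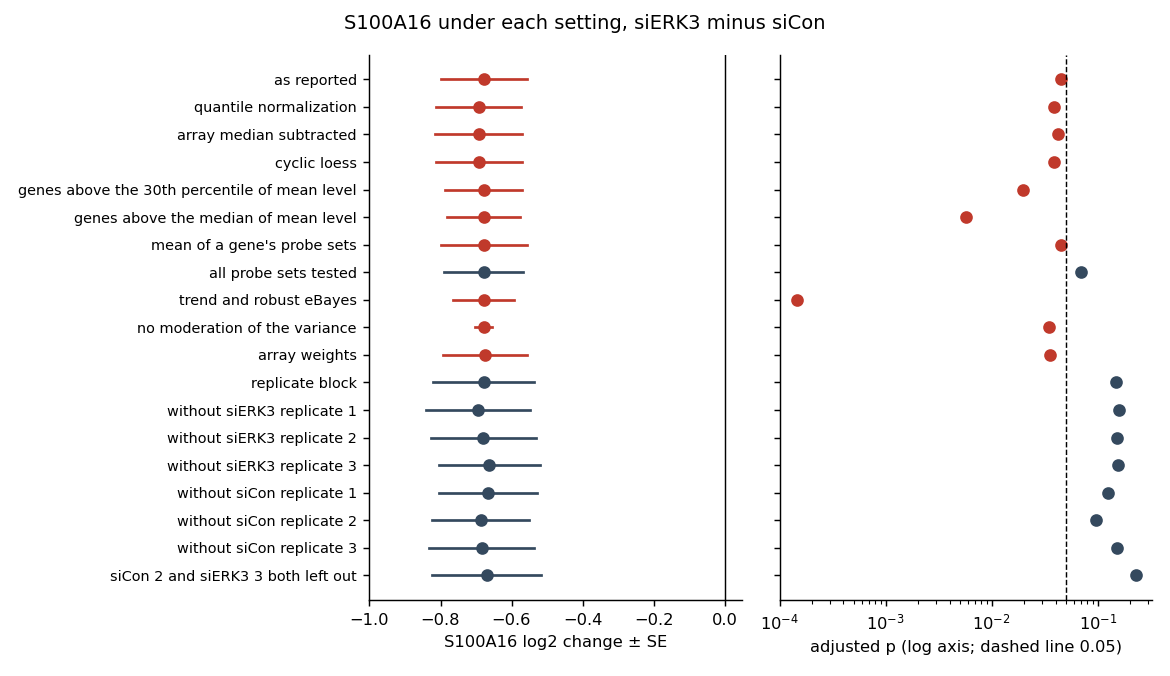
S100A16 under each setting of the analysis, with its log2 change ± SE (left) and its adjusted p on a log axis (right); red marks an adjusted p under 0.05. The change lies between -0.69 and -0.66 in every setting shown, while the adjusted p runs from 0.000144 to 0.227.

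S100A14, which lies next to S100A16 on chromosome 1 in the RefSeq gene order, was below background on all arrays. The next gene along, S100A13, takes part in the release of IL1A and FGF1, which lack a signal peptide. Its level ranged from 12.92 to 13.11 in siERK3 and from 12.66 to 13.19 in siCon, so the groups overlapped (change 0.06, 95% interval -0.31 to 0.43, adjusted p = 0.921 in limma). S100A1, whose gene overlaps that of S100A13 and which is known as a regulator of calcium cycling in muscle, ranged from 8.07 to 8.49 in siERK3 and from 7.96 to 8.14 in siCon. Its change was 0.15 (95% interval -0.20 to 0.50, adjusted p = 0.745 in limma). S100A16 was set against S100A13 within each array, as the log2 value of S100A16 minus that of S100A13. This quantity was -0.34, -0.52 and -0.37 in siERK3, against 0.10, 0.59 and 0.29 in siCon. The groups lay -0.74 apart (SE 0.15) without overlap. The pair was chosen after its values were seen, so this is a description with no test.

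S100A3 and S100A4 are adjacent genes whose fitted changes had opposite signs. S100A3 is a cysteine-rich member best known from the hair cuticle. It gave 12.67, 12.54 and 12.26 in siERK3, against 12.24, 12.17 and 11.99 in siCon. Every siERK3 array lay above every siCon array, although siERK3 3 and siCon 1 were nearly level. The change of 0.36 (SE 0.15) had an unadjusted p of 0.0453 and an adjusted p of 0.358 in limma, and did not pass. S100A4, also called metastasin, binds the heavy chain of non-muscle myosin and is tied to cell motility. It gave 11.51, 11.41 and 11.33 in siERK3, against 11.96, 11.59 and 11.66 in siCon. Each siERK3 value was under each siCon value, and siCon 1 was the highest. The change of -0.32 (SE 0.15, adjusted p = 0.397 in limma) did not pass. It was -0.21 without siCon 1 and -0.39 without siCon 2.

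Set against each other on the same array, S100A3 minus S100A4 was 1.16, 1.13 and 0.93 in siERK3, against 0.29, 0.58 and 0.33 in siCon. The difference was larger on each siERK3 array than on any siCon array. The groups differed by 0.68 (SE 0.12), and by 0.84 without siCon 2 and siERK3 3. This pair, too, was chosen after its values were seen, for the opposite signs of its changes, so the difference restates that choice and has no test.

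S100B gave 10.38, 10.22 and 10.42 in siERK3, against 10.30, 9.76 and 9.81 in siCon. The groups overlapped through siCon 1, which reached the siERK3 range. The change was 0.39 (SE 0.17, 95% interval -0.0017 to 0.78), and it did not pass (adjusted p = 0.374 in limma). Without siCon 1 it was 0.56 with an adjusted p of 0.194, and without siCon 2 it was 0.29 with an adjusted p of 0.541. S100B is the only member on chromosome 21. None of its 5 measured neighbours there was called, beside 0.956% of all genes, and 2 of the 5 were above background on all arrays.

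S100A10 and S100A11 lie side by side at the far end of the chromosome 1 cluster, and both are partners of annexins at the cell membrane. S100A10, also called p11, has lost calcium binding and joins ANXA2 in a complex that gathers plasminogen at the cell surface. It gave 16.68, 16.69 and 16.67 in siERK3, against 17.06, 16.68 and 16.88 in siCon. The siERK3 arrays were nearly identical and siCon 2 fell among them, so the groups overlapped. The change was -0.19 (SE 0.14, adjusted p = 0.624 in limma), and values above 16, the log2 limit of a 16-bit scanner, have an unknown zero point. S100A11, a partner of ANXA1, gave 14.11, 14.06 and 14.17 in siERK3, against 14.37, 14.37 and 14.22 in siCon. These groups did not overlap, but the gap between siERK3 3 and siCon 3 was small, and the change of -0.21 (SE 0.13, adjusted p = 0.550 in limma) did not pass. RefSeq lists 10 pseudogenes of S100A11, so its probe set may also read their transcripts.

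S100A6, also called calcyclin and known to bind CACYBP, ranged from 14.68 to 14.84 in siERK3 and from 14.76 to 14.98 in siCon. With overlapping groups and a change of -0.11 (95% interval -0.41 to 0.19, adjusted p = 0.785 in limma), its difference did not exceed the spread between arrays. S100A2, mainly a protein of epithelial nuclei, gave 6.88, 6.90 and 6.88 in siERK3, against 7.54, 6.28 and 6.14 in siCon. All 6 values were below background, so no fold is given. Its siCon values also spread the most of any member (SD 0.77), and the adjusted p was 0.821 in limma.

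**Figure D3:**
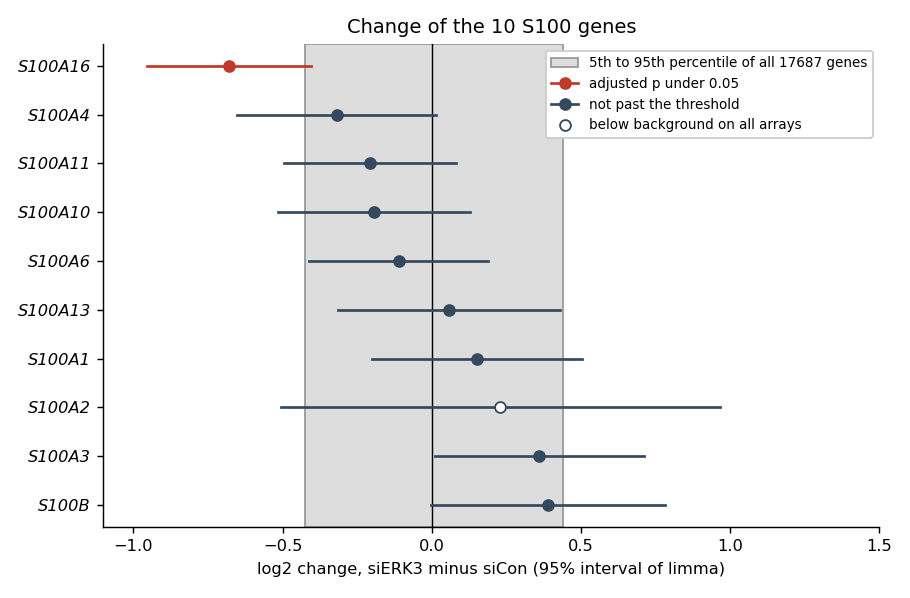
Fitted log2 change of each S100 gene, siERK3 minus siCon, with limma's 95% interval; the shaded band holds the 5th to 95th percentile of the changes of all 17687 genes (-0.43 to 0.44). S100A16 at -0.68 is the member outside the band, and the open circle marks S100A2, below background on all arrays.

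Array siCon 1 ran high for these genes. It held the highest siCon value in 9 of the 10 members, S100A11 being the exception, while it was the highest siCon array for 38.6% of the genes above background on all arrays. Its part in the members' changes can be read from the fits without it, in which the median change of the members was 0.07. The groups did not overlap for 4 members, S100A3, S100A4, S100A11 and S100A16, all of which are among the 9 above background. That is 44.4% of the 9, beside 29.5% of all genes above background, and 40% of the 10, beside 19.8% of all genes. By direction, 1 of the 10 was higher in siERK3, beside 10.1% of all genes, and 3 were lower, beside 9.7%. At an unadjusted p under 0.05 the members numbered 2 of 10, beside 13.5% of all genes. These shares describe 10 genes and were not tested against other genes.

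The promoter sequences of these 4 genes are shown because their groups did not overlap, the first being the member that passed. Each is the 250 bases before an annotated start in RefSeq (GRCh38.p14), written 5′ to 3′ on the gene's strand, and S100A16 has 2 annotated starts. Capitals mark matches on either strand to the TATA box, searched as TATAAA. They also mark the AP-1 site, searched as TGANTCA, in which N is any base. The last motif was the GC box, searched as GGGCGG, and no matches overlapped in the windows shown.
S100A16 upstream start, chr1:153613138-153613387, minus strand: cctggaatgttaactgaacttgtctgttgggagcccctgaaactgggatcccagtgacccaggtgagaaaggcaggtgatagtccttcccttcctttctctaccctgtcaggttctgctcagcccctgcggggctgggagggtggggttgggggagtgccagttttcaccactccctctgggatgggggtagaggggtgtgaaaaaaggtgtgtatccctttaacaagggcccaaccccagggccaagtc
S100A16 downstream start, chr1:153609356-153609605, minus strand: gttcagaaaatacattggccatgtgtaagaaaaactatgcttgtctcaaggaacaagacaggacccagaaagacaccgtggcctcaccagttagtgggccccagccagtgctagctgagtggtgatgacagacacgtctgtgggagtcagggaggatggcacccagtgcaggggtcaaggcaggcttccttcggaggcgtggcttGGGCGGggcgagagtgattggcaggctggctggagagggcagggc
S100A4, chr1:153545807-153546056, minus strand: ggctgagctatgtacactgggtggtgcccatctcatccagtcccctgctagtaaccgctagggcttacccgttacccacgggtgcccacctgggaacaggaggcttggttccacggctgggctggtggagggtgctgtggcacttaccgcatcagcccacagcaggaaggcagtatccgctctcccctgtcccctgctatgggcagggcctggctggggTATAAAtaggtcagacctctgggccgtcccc
S100A3, chr1:153549259-153549508, minus strand: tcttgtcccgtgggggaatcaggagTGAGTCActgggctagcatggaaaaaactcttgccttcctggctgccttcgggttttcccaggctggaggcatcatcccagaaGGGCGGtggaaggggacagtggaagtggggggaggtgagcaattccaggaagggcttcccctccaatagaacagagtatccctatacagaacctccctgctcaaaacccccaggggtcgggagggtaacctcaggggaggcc
S100A11, chr1:152037005-152037254, minus strand: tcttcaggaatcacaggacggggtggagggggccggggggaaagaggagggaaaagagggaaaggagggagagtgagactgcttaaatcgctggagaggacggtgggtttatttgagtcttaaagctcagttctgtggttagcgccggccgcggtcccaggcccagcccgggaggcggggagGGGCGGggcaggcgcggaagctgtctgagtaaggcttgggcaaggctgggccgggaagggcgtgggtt

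The downstream window of S100A16 held a GC box that began at position -45 from the start, and its upstream window held none of the 3 motifs. The upstream window also had 1 CpG dinucleotide and the downstream window 6, beside a median of 11 over 34943 promoter windows of this length. S100A4 had a TATA box, at position -31 from its start. S100A3 had an AP-1 site, the sequence bound by Fos and Jun dimers, at position -225 and a GC box at -142. S100A11 had a GC box at position -68. A TATA box was found in 10.8%, an AP-1 site in 6.59% and a GC box in 42.5% of all windows. RefSeq windows were at hand for 9 of the 10 members (13 windows), of which 2 held a TATA box, 2 an AP-1 site and 6 a GC box. The matches do not show whether a factor is bound.

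The chromosome 1 members share their region with the genes of the outer skin layer. Between S100A10 and S100A1, with 5 genes on each side, 70 protein-coding genes were measured, 9 of them members. Of the other 61, 7 were above background on all arrays and 0 were called, beside 0.956% of all genes called. Among these 7 the groups did not overlap for 2, beside 29.5% of all genes above background on all arrays. The 2, named after their values were seen, were CHTOP (change -0.18, adjusted p = 0.638 in limma) and INTS3 (change 0.45, adjusted p = 0.152). S100A16 was therefore the called gene of this stretch.

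**Figure D4:**
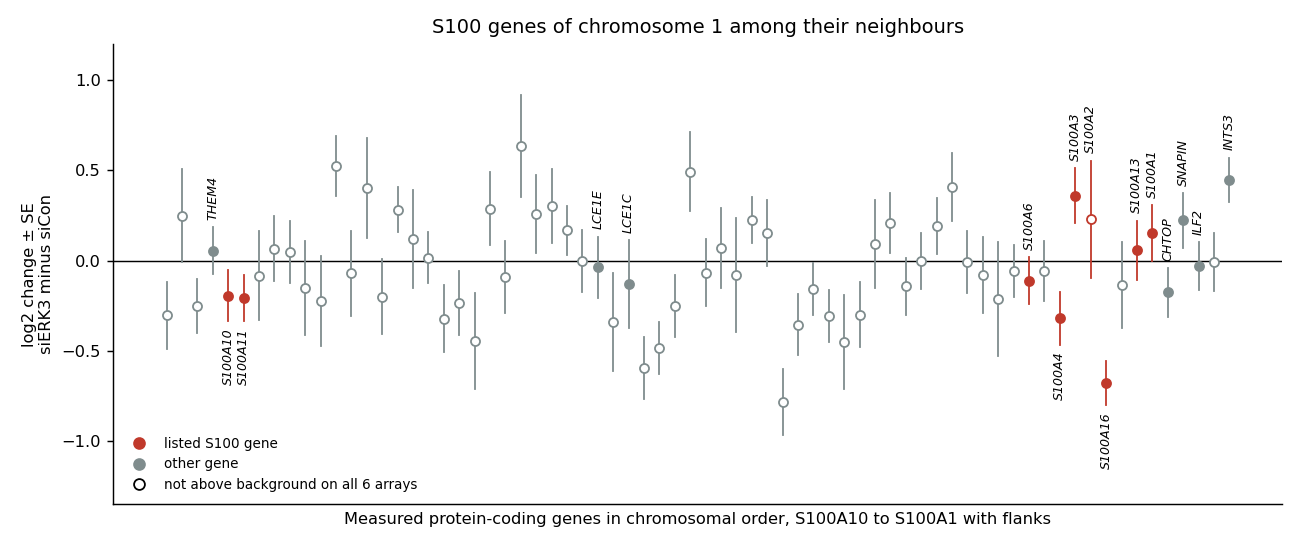
Log2 change ± SE of the 70 measured protein-coding genes from the left flank of S100A10 to the right flank of S100A1, evenly spaced in chromosomal order. Red marks the listed S100 genes and open circles the genes not above background on all 6 arrays; S100A16 at -0.68 has the largest fall of the filled circles.

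The rest of the family was not detected. All 10 other measured S100 genes lay below background on all arrays, among them S100A8 and S100A9, the subunits of the inflammatory protein calprotectin. None of them passed in limma, beside 0.956% of all genes, and 0 were at an unadjusted p under 0.05, beside 13.5% of all genes. The smallest p belonged to S100A9, at 4.51 ± 0.24 in siERK3 and 4.10 ± 0.29 in siCon (SD, n = 3 each), followed by S100Z at 4.62 in siERK3 and 4.45 in siCon and S100P at 5.60 in siERK3 and 5.44 in siCon. The 7 S100-fused genes, which carry an S100 domain in a large protein of the skin barrier, were also below background and none passed in limma. At an unadjusted p under 0.05 there was 1 of the 7, FLG2, beside the same 13.5% of all genes. FLG2 averaged 3.50 in siERK3 and 2.98 in siCon, FLG 4.35 in siERK3 and 4.58 in siCon, and HRNR 3.69 in siERK3 and 3.84 in siCon.

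Among receptors on which released S100 proteins act, 1 of 6 rose and 0 fell, beside 0.447% of all genes called higher and 0.509% called lower. ALCAM, an adhesion molecule described as a receptor of S100B, gave 10.29, 10.22 and 10.33 in siERK3, against 8.88, 9.24 and 9.16 in siCon. The groups were far apart, and ALCAM rose by 1.19 (SE 0.14, 2.28-fold, adjusted p = 0.0135 in limma). With each array left out in turn it passed in 2 of 6 fits, those without siCon 1 and without siCon 2, and the adjusted p was 0.113 without siCon 2 and siERK3 3 and 0.101 without moderation of the variance. AGER, the receptor for advanced glycation end products and the best known S100 receptor, was below background on all arrays (5.12 in siERK3, 5.27 in siCon). BSG (basigin) had a change of 0.24 (adjusted p = 0.542 in limma), TLR4 of 0.12 (adjusted p = 0.798), and FGFR1 was below background at 6.07 in siERK3 and 5.92 in siCon. AGER and TLR4 were chosen once their values were known. The median change of the 6 was 0.13.

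Of 32 other measured targets of S100 proteins, 1 fell and 0 rose, beside 0.509% of all genes called lower and 0.447% called higher. Of the 32, 10 were below background on all arrays. The 1 that fell was IL1A, the alarmin whose release involves S100A13. It gave 10.87, 11.14 and 10.90 in siERK3, against 12.16, 12.31 and 12.15 in siCon. IL1A fell by 1.24 (SE 0.14, adjusted p = 0.00955 in limma), while S100A13 itself had overlapping groups. The call was lost without siERK3 1 (adjusted p = 0.0538), without siERK3 3 (0.0545), without siCon 2 and siERK3 3 together (0.126) and without moderation of the variance (0.0839). PGM1, a sugar phosphate enzyme bound by S100A1, had a change of -0.51 (adjusted p = 0.115 in limma), and ASIC1, an ion channel that S100A10 carries to the membrane, was below background at 6.95 in siERK3 and 6.39 in siCon. MYH9 and CACYBP were named after their values were seen. MYH9, the myosin heavy chain bound by S100A4, had a change of -0.32 (adjusted p = 0.368 in limma). Its groups did not overlap, as held for 29.5% of genes above background on all arrays. CACYBP, the partner of S100A6, had a change of -0.08 (adjusted p = 0.854 in limma) with overlapping groups. The median change of the list was -0.0014.

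Of 15 annexins and related membrane proteins, 1 rose and 0 fell, beside 0.447% of all genes called higher and 0.509% called lower. ANXA9, an atypical annexin, gave 8.43, 8.09 and 8.13 in siERK3, against 6.85, 7.09 and 7.31 in siCon. All siCon values were below background, so ANXA9 was at least 1.73-fold higher in siERK3 (adjusted p = 0.0236 in limma). With each array left out in turn it passed in 0 of 6 fits, and the adjusted p was 0.181 without siCon 2 and siERK3 3, 0.0533 with all probe sets tested and 0.156 without moderation of the variance. DYSF, a membrane repair protein, was below background at 4.05 in siERK3 and 4.68 in siCon, and ANXA7 had a change of -0.36 (adjusted p = 0.434). The annexins that pair with members were named after their values were seen. ANXA2 averaged 16.91 in siERK3 and 17.01 in siCon (change -0.10, SE 0.13, adjusted p = 0.804 in limma). ANXA1 averaged 16.86 in siERK3 and 17.00 in siCon (change -0.14, SE 0.13, adjusted p = 0.696 in limma). These levels are above 16, so the limit given for S100A10 holds for them too. The list's median change was -0.08.

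Other EF-hand calcium-binding genes gave 1 rise and 1 fall among 60 measured, with 58 not called. Over all genes, 0.447% were called higher and 0.509% lower. CAPS, which encodes calcyphosine, gave 9.24, 9.45 and 9.22 in siERK3, against 7.97, 8.42 and 8.33 in siCon. It rose by 1.06 (SE 0.16, 2.08-fold, adjusted p = 0.0236 in limma). CALB2, which encodes the calcium buffer calretinin, gave 7.21, 6.32 and 6.32 in siERK3, all below background, against 7.85 to 8.10 in siCon. CALB2 was at least 1.53-fold lower in siERK3 (adjusted p = 0.0437 in limma). With each array left out in turn, both genes passed in 1 of 6 fits, CAPS without siCon 2 and CALB2 without siERK3 1, and without siCon 2 and siERK3 3 the adjusted p was 0.149 for CAPS and 0.227 for CALB2. It was 0.0555 for CAPS and 0.0941 for CALB2 with all probe sets tested, and 0.152 for CAPS and 0.232 for CALB2 without moderation of the variance. RCVRN, a retinal calcium sensor, was below background at 6.52 in siERK3 and 5.85 in siCon. The list's median change was -0.0064.

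**Figure D5:**
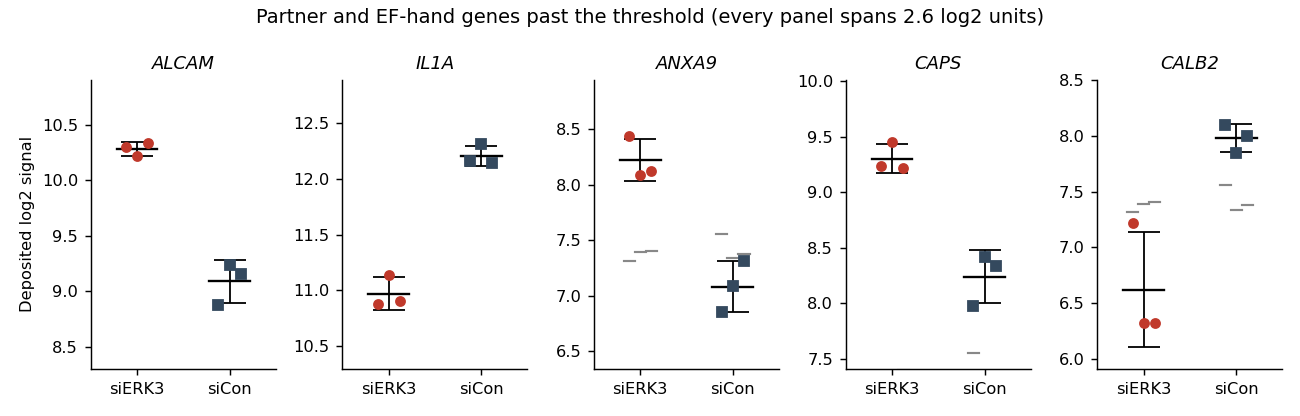
Deposited log2 signal of the 5 genes of the partner and EF-hand lists that passed the threshold, siERK3 (red circles) beside siCon (dark squares), with mean ± SD of 3 arrays and each array's background level as a short grey line where it falls within the panel. ALCAM, ANXA9 and CAPS are higher and IL1A and CALB2 lower in siERK3, with ANXA9 below background in siCon and CALB2 below it in siERK3.

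The genes whose pattern over the 6 arrays was most like that of S100A16 were found among 7720 genes above background on all arrays. PIK3CB, which encodes a catalytic subunit of phosphoinositide 3-kinase, had the highest Pearson's r of 0.998, at 10.83 ± 0.04 in siERK3 and 11.48 ± 0.02 in siCon (SD, n = 3 each; adjusted p = 0.0520 in limma). FAM3C, a secreted cytokine-like protein, followed with 0.998, at 14.09 in siERK3 and 15.06 in siCon (adjusted p = 0.0149), and FAM72C with 0.996, at 11.98 in siERK3 and 12.69 in siCon (adjusted p = 0.0437). With each array left out in turn FAM3C passed in 1 of 6 fits, that without siCon 2, and FAM72C in 0. FAM72C has near-identical paralogs that its probe set may also read. Each r is a description over the same 6 arrays, in which the groups did not overlap for any of these genes.

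Markers of other cell types were examined beside these values. Leukocyte markers averaged 6.04 to 6.13 over 9 genes in siERK3 and 6.17 to 6.35 in siCon, without overlap. Their changes had both signs (4 above 0, 5 below it). Of the 9, 7 were below background on all arrays, among them the defining PTPRC (4.19 in siERK3, 4.03 in siCon). The other 2, named after their values were seen, were LYZ and CD68, and neither passed. LYZ was at 8.55 in siERK3 and 9.40 in siCon (adjusted p = 0.0965 in limma), and CD68 at 12.05 in siERK3 and 12.51 in siCon (adjusted p = 0.152). At an unadjusted p under 0.05, 3 of the 9 were lower, beside 1149 of all 17687 genes. Endothelial markers were all below background (9 of 9), as were 8 of 9 keratinocyte markers. The other keratinocyte marker, the desmosomal gene DSP, was above background on 2 siERK3 arrays, at a mean of 7.42 in siERK3 and 6.67 in siCon without overlap (adjusted p = 0.0934 in limma).

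Fibroblast markers averaged 6.09 to 6.31 in siERK3 and 5.94 to 6.12 in siCon, with 6 of 9 below background, and their changes had both signs (6 above 0, 3 below it). LUM, a matrix proteoglycan, fell by 0.83 (adjusted p = 0.0441 in limma), and this call was lost in all 6 fits that left out 1 array (adjusted p from 0.0825 to 0.157), with all probe sets tested (0.0828) and without moderation of the variance (0.155). PDGFRB and FAP had no overlap in the other direction. PDGFRB averaged 7.66 in siERK3 and 6.91 in siCon, where it was below background (adjusted p = 0.0631), and FAP, below background on all arrays, 5.40 in siERK3 and 4.43 in siCon (adjusted p = 0.154 in limma). Schwann cell and glia markers averaged 6.27 to 6.32 over 4 genes in siERK3 and 6.06 to 6.18 in siCon, without overlap. Their changes, too, had both signs (3 above 0, 1 below it). CDH19 was above background (11.35 in siERK3, 11.11 in siCon), the other 3 were below it, among them NGFR (6.62 in siERK3, 6.05 in siCon, adjusted p = 0.245 in limma), and none passed. The marker genes given here were named after their values were seen. The part of these markers in the S100 values was not tested.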

How the data were processed

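RNA of A375 cells was hybridised to 6 Clariom S arrays, 3 siERK3 and 3 siCon. Per the labels, the RNA was extracted with Trizol, passed an integrity number above 6 and was labelled with the WT PLUS kit. The authors' deposited table holds log2 values of 24351 probe sets. Which software, background correction and normalization made them is not given in the labels or file headers used here. The highest values, 19.1 to 19.4, lie above 16, where a 16-bit scanner ends on the log2 scale, and the zero point and any stretch of the scale are unknown.

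Probe sets with 1 symbol in the platform annotation (17709) were kept, and the brightest of each gene by mean over all arrays was used, giving 17687 genes. All 10 members had 1 probe set and the same symbol by Entrez identifier in RefSeq. The test was limma's moderated test (version 3.58.1, R 4.3.3; lmFit, eBayes) of siERK3 minus siCon with no covariate and Benjamini-Hochberg adjustment over all genes. No filter or pseudocount was applied. A gene below the background level in all arrays of a group has a fold that is a lower bound: each array of that group counts at its background level, or at the value of the gene where that is higher. The number of arrays limits the precision.

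The members and gene lists were chosen with earlier results of these data known. Genes named are all members, MAPK6, of each other list those past the threshold and the 3 with the smallest p, the 3 genes most like each called member, and called neighbours. Alternatives were other normalizations, filters, probe set rules, variance models, array weights, the replicate number as a block, and each array left out, and, chosen after seeing the data, siCon 2 and siERK3 3 left out together.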

Additional observations from a re-analysis of the deposited data

How the results depend on the processing

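Of 179 member changes recomputed under alternatives, 176 kept their direction. The exceptions were S100A13, at -0.047 without siCon 2 and siERK3 3 together, and, with each array left out in turn, S100A13 (-0.083 to 0.18, the lowest without siCon 2) and S100A2 (-0.027 to 0.67, the lowest without siCon 3). Away from the members, leaving out each array also turned the sign of AGER (-0.39 to 0.18), S100P (-0.019 to 0.29), HRNR (-0.48 to 0.075), FLG (-0.47 to 0.072) and SOX10 (-0.20 to 0.049). Without both arrays, AGER gave 0.16, S100P -0.017, ANXA2 0.0067 and MITF 0.00034. The number of members past the threshold was 1 in 9 of 11 alternatives, and 0 with all probe sets tested, 0 with the replicate number as a block, 0 with each array left out in turn, and 0 without both arrays. The median change of the members was -0.11 among genes above the median level, where S100A2 is left out, -0.12 to 0.066 with each array left out, and -0.10 without both arrays. All genes past the threshold numbered 365 and 581 after filters at the 30th percentile and the median of mean level, 70 with all probe sets, 722 with a variance trend and robust eBayes, 8 without moderation of the variance, 23 to 60 with each array left out and 7 without both arrays. The cause of these shifts was not tested. Samples share only a replicate number: deviations of same-numbered arrays correlated at 0.05, -0.12 and -0.04, and the replicate block left 33 genes past the threshold, with S100A16 at an adjusted p of 0.148 in limma. IL1A passed under this block (0.0377), and ALCAM (0.0579), CALB2 (0.0604), CAPS (0.0635), FAM3C (0.0705), ANXA9 (0.0885), LUM (0.136) and FAM72C (0.143) did not. FAM72C was also lost with all probe sets tested (0.0687) and without moderation of the variance (0.0664), and FAM3C without moderation (0.0603). Signals near background limit S100A2 and the undetected S100 genes.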
